A study of Rattus norvegicus with 6 samples.

Results

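Cadherins, catenins, contactins and the other adhesion proteins of the nervous system form the gene group described here. Its members were chosen by symbol (Cdh, Cdhr, Pcdh, Fat and Celsr cadherins, Ctnna, Ctnnb and Ctnnd catenins, contactins and Cntnap proteins, the Ncam and L1 family, Cadm and Nectin proteins, neurexins, neuroligins and Lrrtm proteins). The pattern took 77 of the 13355 genes measured. It reads symbols and no expression value, but the gene group was proposed with earlier results of these data known, so the share of it that passed is a description. RefSeq lists 133 protein-coding rat symbols that fit the pattern, and those with no valued single-symbol probe entered no gene-level test.

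The arrays came from primary oligodendrocyte progenitor cells (OPCs), the glial precursors that give rise to the myelin-forming oligodendrocytes. Cells were taken from rat pups of postnatal day 1 to 2 and recovered for 2 days in medium with PDGF and NT3. The fibrinogen group (3 arrays) then received fibrinogen, the clotting protein of blood plasma, for 48 h in differentiation medium. The control group (3 arrays) was unstimulated and carries the same 48 h in its titles, and its medium, as well as the strain of the rats and whether arrays came from separate cultures, is not given in the sources used here. P-values therefore measure the spread between these arrays, which may be technical. The study's title concerns BMP signaling and remyelination after vascular damage.

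Classical cadherins join cells through calcium-dependent contacts and are tied to actin by catenins, of which beta-catenin is also a transcriptional partner in Wnt signaling. Immunoglobulin-type adhesion proteins (Ncam, L1 family, contactins, Cadm and nectins) bind each other across the gap between glia and axons. Glial neurofascin anchors the paranodal loops of myelin to contactin and Cntnap1 on the axon, Cadm proteins bind each other across the internode, and neurexins bind neuroligins and Lrrtm proteins across synapses. OPCs receive synapses from neurons and express many of these genes.

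Fibrinogen changed a minority of the group, and mostly upward. Of the 77 genes, 10 rose and 3 fell at an adjusted p of 0.05 (limma, Benjamini-Hochberg over all 13355 genes), and 64 did not pass. Over all genes measured, 4.16% rose and 3.00% fell by the same rule, 7.16% in all, against 13.0% and 3.90% of the adhesion genes, 16.9% in all. The median log2 fold change was -0.01 for the group and 0.00 for all genes. The groups of arrays did not overlap for 26 of the 77 genes (33.8%), against 27.0% of all genes. All 13 changes were under 2-fold, the largest being a 1.88-fold rise. The called genes came from 6 of the 8 families: cadherins, catenins, Celsr cadherins, the L1 family, Cadm proteins, and neurexins with Lrrtm proteins. None of 16 protocadherins and none of 11 contactins and Cntnap proteins passed. The median log2 value was 5.84 on each fibrinogen array and 5.78 to 5.80 on the control arrays. With array medians set equal the split was 8 higher and 5 lower in the group. Over all genes it was then 434 higher and 516 lower, against 555 and 401 as deposited. Leaving out 1 array left 3 to 6 genes higher and 1 to 3 lower. The lowest count higher came without control 3 or fibrinogen 1 (3 each), and it was 4 without control 1, fibrinogen 2 or fibrinogen 3 and 6 without control 2. The count lower was 3 without control 2 and 1 without each of the others. In an unmoderated linear model 4 of the 13 passed (Cadm3, Cadm1, Cdh22 and Nfasc), and in a fit on all valued probes 9 passed, without Celsr3, Ctnnd2, Nrcam and Nrxn2.

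**Figure D1:**
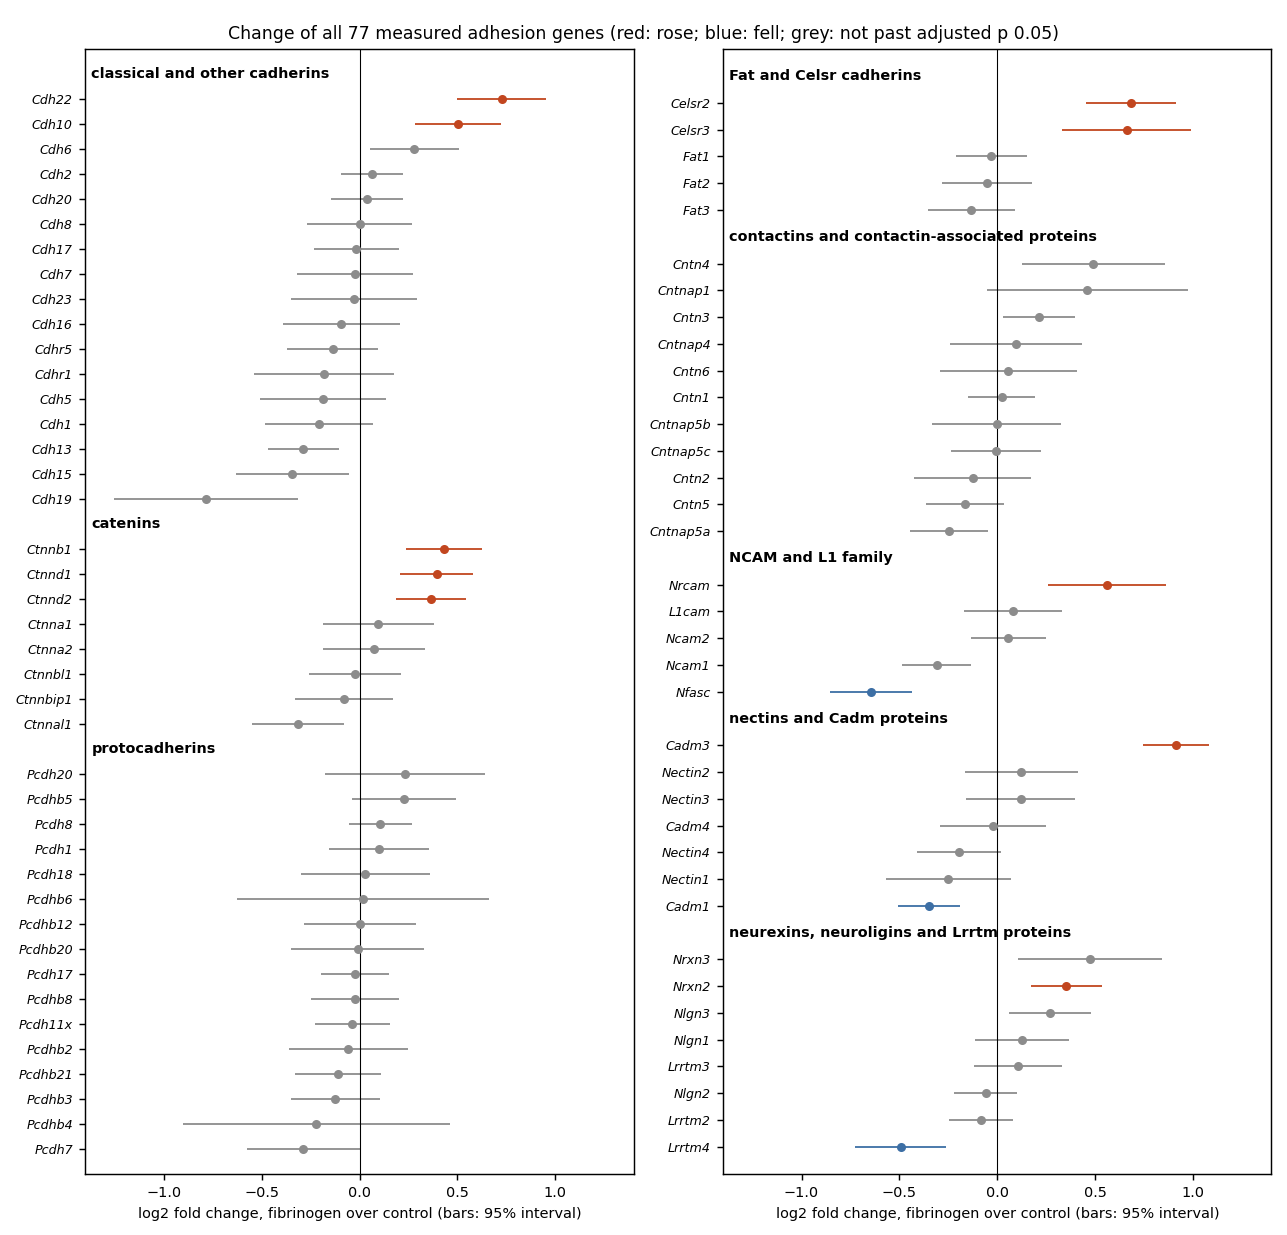
Log2 fold change of each of the 77 genes (points, fibrinogen over control, x axis) with 95% intervals, grouped by family down the page. The 10 genes in red rose, the 3 in blue fell, and the 64 in grey did not pass; the protocadherin points lie close to 0.

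Among the 17 cadherin genes, 2 rose, none fell and 15 did not pass (median log2 fold change -0.03). The share called was 11.8%, against 7.16% of all genes. Shares of single families rest on few genes and were not tested. Cdh22, a type II classical cadherin of the brain, read 6.88, 6.59 and 6.83 in the fibrinogen arrays and 5.99, 6.09 and 6.04 in the control arrays on the log2 scale. Every fibrinogen array lay above every control array, and Cdh22 rose 1.65-fold (a log2 fold change of 0.73, SE 0.10, adjusted p = 0.00682). Cdh10, a related type II cadherin, read 7.92, 7.76 and 8.01 with fibrinogen and 7.44, 7.45 and 7.29 in control arrays, again without overlap, and rose 1.42-fold (log2 fold change 0.50, SE 0.09, adjusted p = 0.0240). The call of Cdh22 held without any one array (highest adjusted p = 0.0373). That of Cdh10 survived the removal of fibrinogen 2 and of no other array (adjusted p up to 0.0916, without fibrinogen 1).

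Cdh2, N-cadherin, the main classical cadherin of neural cells, had the brightest probe of the cadherins. It read 10.09, 10.07 and 10.08 in fibrinogen arrays and 10.00, 10.03 and 10.02 in control arrays. The groups stood apart by a small step and did not pass, with a log2 fold change of 0.06 (95% interval -0.09 to 0.22, adjusted p = 0.656). Cdh19, a cadherin of neural crest and Schwann cell precursors, had the lowest point estimate of all 77 genes, -0.78 (95% interval -1.25 to -0.31, adjusted p = 0.0651), and did not pass. Its probe was dim, at 3.11 ± 0.09 in fibrinogen and 3.89 ± 0.43 in control arrays (SD, n = 3). Cdh13, T-cadherin, which is held in the membrane by a lipid anchor, was at -0.29 (95% interval -0.47 to -0.10, adjusted p = 0.0776). The endothelial cadherin gene Cdh5 and the epithelial cadherin gene Cdh1 had dim probes and were at -0.19 and -0.21, and neither passed. The other 10 cadherin genes ran from -0.34 (Cdh15) to 0.28 (Cdh6).

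Of the 8 catenin genes, 3 rose (37.5%) and 5 did not pass, with a median log2 fold change of 0.09. Probes of all 8 were brighter than the median gene, where 11.4% of all genes passed. Ctnnb1, beta-catenin, read 10.63, 10.67 and 10.72 in fibrinogen arrays and 10.13, 10.34 and 10.25 in control arrays. It rose 1.35-fold (log2 fold change 0.43, SE 0.08, adjusted p = 0.0259). Ctnnd1, the catenin that holds classical cadherins at the membrane through their juxtamembrane part, read 8.96, 8.88 and 8.86 with fibrinogen and 8.42, 8.59 and 8.51 in control arrays, and rose by 0.39 on the log2 scale (adjusted p = 0.0302). Ctnnd2, its neural relative, read 8.69, 8.65 and 8.75 with fibrinogen and 8.25, 8.38 and 8.37 in control arrays, and rose by 0.36 (adjusted p = 0.0350). In all 3 genes every fibrinogen array exceeded every control array. The alpha-catenin genes, whose products link beta-catenin to actin, were at 0.10 for Ctnna1 (95% interval -0.19 to 0.38) and 0.07 for Ctnna2 (95% interval -0.19 to 0.33). Ctnnal1, a relative of the alpha-catenins, was at -0.31 (95% interval -0.55 to -0.08, adjusted p = 0.122). Ctnnbip1, an inhibitor of beta-catenin binding to TCF proteins, was at -0.08, and Ctnnbl1, a splicing-associated protein that shares the name and not the junctional role, at -0.02. None of the last 5 passed.

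All 3 catenin calls rested on nearly the full set of arrays. That of Ctnnb1 survived the removal of control 2 and of no other array (adjusted p up to 0.0976, without fibrinogen 3), and the same held for Ctnnd1 (highest adjusted p = 0.111, without fibrinogen 1). That of Ctnnd2 survived the removal of no array (adjusted p = 0.0667 to 0.122). Over those refits the log2 fold change stayed between 0.38 and 0.48 for Ctnnb1, 0.35 and 0.43 for Ctnnd1, and 0.32 and 0.39 for Ctnnd2.

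**Figure D2:**
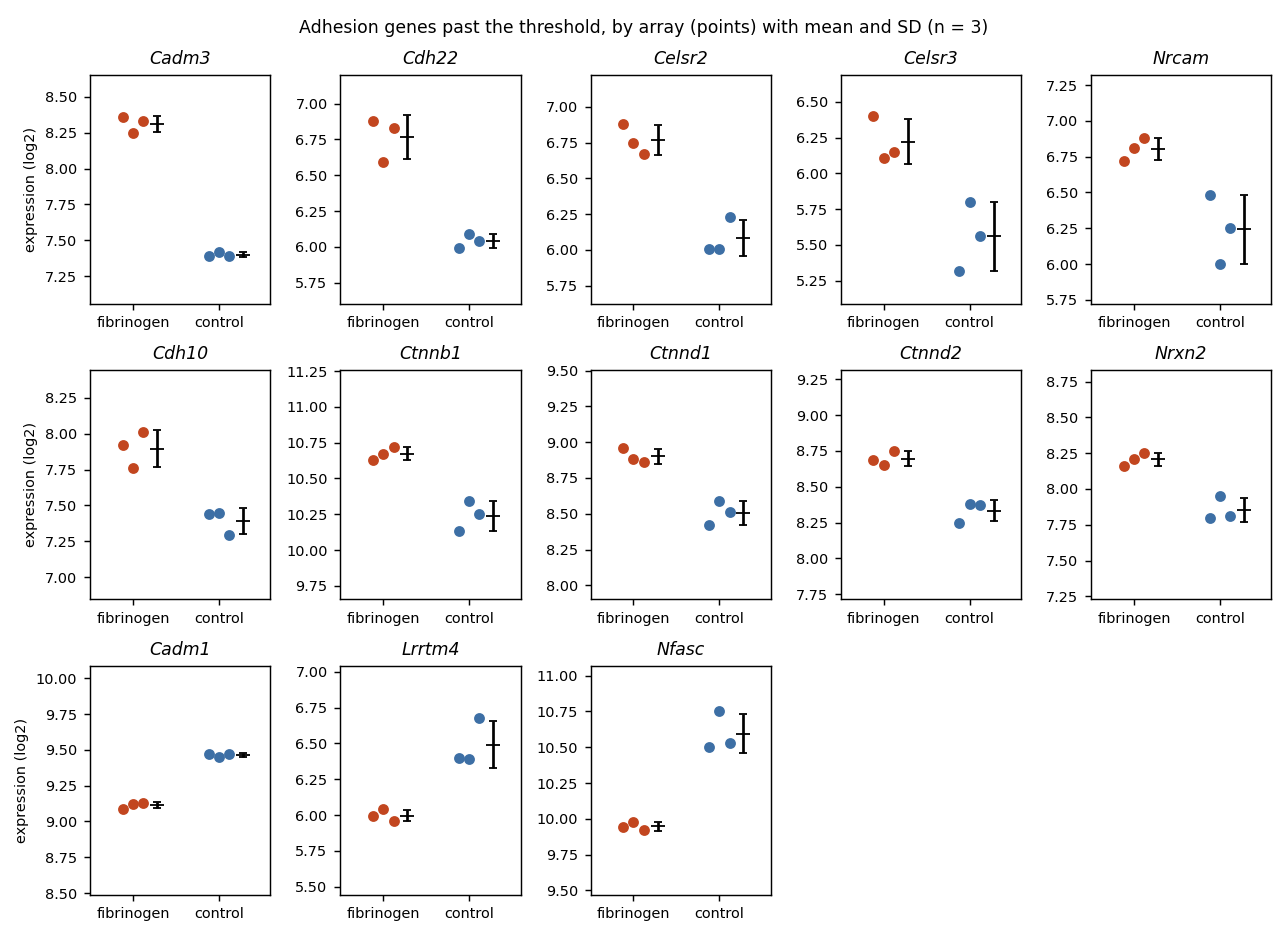
Log2 expression on each array (y axis, 1 point per array) of the 13 adhesion genes past the threshold, fibrinogen left in red and control right in blue, with black bars for mean and SD (n = 3). Every panel spans the same log2 range, and in every panel the 2 groups stand apart. The genes were picked by adjusted p on these same arrays, so that separation adds no support of its own.

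The atypical cadherins of planar cell polarity gave a pair of rises among 5 genes (40%, against 7.16% of all genes). Celsr2 read 6.88, 6.75 and 6.67 in fibrinogen arrays and 6.01, 6.01 and 6.23 in control arrays, and rose 1.61-fold (log2 fold change 0.68, SE 0.10, adjusted p = 0.00907). Celsr3 read 6.40, 6.11 and 6.15 with fibrinogen and 5.32, 5.80 and 5.56 in control arrays, and rose 1.58-fold (log2 fold change 0.66, SE 0.14, adjusted p = 0.0365). The groups did not overlap for either gene. The giant Fat cadherin genes Fat1, Fat2 and Fat3 were at -0.03, -0.05 and -0.13 on the log2 scale and did not pass (95% interval -0.21 to 0.15 for Fat1, the brightest of them). The call of Celsr2 held with any array removed (adjusted p up to 0.0441) and was lost with an unmoderated linear model (adjusted p = 0.0517). That of Celsr3 survived the removal of control 2 and of no other array (adjusted p up to 0.122, without fibrinogen 1).

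Protocadherins, which give neurons and glia surface identity, showed no call in 16 genes. Their log2 fold changes ran from -0.29 to 0.23 with a median of -0.02. None reached an unadjusted p of 0.05 in limma, against 2815 of all 13355 genes that did. Probes of 10 of the 16 were dimmer than the median gene, where 914 of 6677 genes reached that p and 2.97% were called. Pcdh7 had the smallest p of the family, at 7.42 ± 0.17 in fibrinogen and 7.71 ± 0.17 in control arrays (SD, n = 3; log2 fold change -0.29, 95% interval -0.58 to 0.00, adjusted p = 0.244). Pcdh17, the brightest, was at 8.79 ± 0.07 in fibrinogen and 8.82 ± 0.03 in control arrays (SD, n = 3; log2 fold change -0.02, 95% interval -0.20 to 0.15). The 9 genes of the Pcdhb cluster, related single-exon neighbours whose probes may share signal, ran from -0.22 to 0.23. Of these, Pcdhb5 was at 0.23 (95% interval -0.04 to 0.49, adjusted p = 0.314). Pcdhb4 and Pcdhb6 varied most between arrays (SD 0.39 and 0.55 with fibrinogen, 0.53 and 0.27 in control arrays).

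Of the Ncam and L1 family, 1 gene rose, 1 fell and 3 did not pass (40% called, against 7.16% of all genes). Nfasc, neurofascin, read 9.94, 9.98 and 9.92 in fibrinogen arrays and 10.50, 10.75 and 10.53 in control arrays. All fibrinogen arrays lay below all control arrays, and Nfasc fell 1.57-fold (log2 fold change -0.65, SE 0.09, adjusted p = 0.00808), the deepest fall among the called adhesion genes. The single probe set does not separate the glial from the neuronal form of neurofascin. Nrcam, a close relative that clusters axonal sodium channels at nodes, read 6.72, 6.81 and 6.88 with fibrinogen and 6.48, 6.0 and 6.25 in control arrays. It rose 1.47-fold (log2 fold change 0.56, SE 0.13, adjusted p = 0.0449). Ncam1, the neural cell adhesion molecule whose polysialylated form marks migrating progenitors, was at 10.04 ± 0.05 in fibrinogen and 10.35 ± 0.06 in control arrays (SD, n = 3), without overlap. It missed the threshold (log2 fold change of -0.31, 95% interval -0.49 to -0.13, adjusted p = 0.0527). Ncam2 was at 0.06 and L1cam at 0.08. The call of Nfasc held without any one array (highest adjusted p = 0.0436). That of Nrcam survived the removal of control 1 and of no other array (adjusted p up to 0.143, without fibrinogen 3). It was also lost with arrays centred on their medians (adjusted p = 0.0644).

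The paranodal partners of neurofascin did not pass. Cntn1, contactin 1, had the brightest probe of all 77 genes and read 10.97, 10.87 and 10.85 in fibrinogen arrays and 10.84, 10.88 and 10.90 in control arrays. The groups overlapped, with a log2 fold change of 0.02 (95% interval -0.15 to 0.19). Cntnap1 read 4.84 ± 0.48 with fibrinogen and 4.38 ± 0.08 in control arrays (SD, n = 3), a log2 fold change of 0.46 with a wide interval (-0.05 to 0.97). Cntn4, a contactin of axon targeting, read 5.95, 5.80 and 5.49 with fibrinogen and 5.12, 5.52 and 5.13 in control arrays (log2 fold change 0.49, 95% interval 0.12 to 0.85, adjusted p = 0.121). Cntnap5a, a dim member, was at -0.25 (adjusted p = 0.144). Probes of 10 of the 11 contactin and Cntnap genes were dimmer than the median gene of the arrays, and the values come without detection calls, so that a change of a transcript near background would be compressed here.

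Cadm and Nectin genes held the largest rise of the group. Cadm3, a nectin-like protein best known on axons, read 8.36, 8.25 and 8.33 in fibrinogen arrays and 7.39, 7.42 and 7.39 in control arrays. It rose 1.88-fold (log2 fold change 0.91, SE 0.07, 95% interval 0.75 to 1.08, adjusted p = 0.00166). Cadm1, another nectin-like adhesion protein, went down: it read 9.09, 9.12 and 9.13 with fibrinogen and 9.47, 9.45 and 9.47 in control arrays, a 1.27-fold fall (log2 fold change -0.35, SE 0.07, adjusted p = 0.0261). Cadm4, the main Cadm protein on the Schwann cell side of the internode in peripheral nerve, was at 9.27 ± 0.18 in fibrinogen and 9.29 ± 0.13 in control arrays (SD, n = 3; log2 fold change -0.02, 95% interval -0.29 to 0.25). The 3 measured Cadm genes thus gave 1 rise, 1 fall and 1 gene that did not pass. None of the 4 nectin genes passed, and they ran from -0.25 (Nectin1) to 0.12 (Nectin2). Of the 7 Cadm and Nectin genes 28.6% were called, against 7.16% of all genes. The call of Cadm3 held without any one array (highest adjusted p = 0.0143), whereas that of Cadm1 survived the removal of no array (adjusted p = 0.0598 to 0.0969) although its log2 fold change stayed between -0.36 and -0.34.

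Of the 8 synaptic partner genes, Nrxn2 rose, Lrrtm4 fell and 6 did not pass (25% called, against 7.16% of all genes). Nrxn2, a presynaptic neurexin, read 8.16, 8.21 and 8.25 in fibrinogen arrays and 7.80, 7.95 and 7.81 in control arrays (log2 fold change 0.35, SE 0.08, adjusted p = 0.0408). It was the single member with a second probe, and that probe read 7.86, 7.68 and 7.76 with fibrinogen and 7.90, 7.59 and 7.66 in control arrays, where the groups overlapped (log2 fold change 0.05, 95% interval -0.20 to 0.30). With the mean of both probes Nrxn2 was at 0.20 and lost its call (adjusted p = 0.164), as it did without any one array (highest adjusted p = 0.136, without fibrinogen 3) and with arrays centred on their medians (adjusted p = 0.0585). Lrrtm4, a postsynaptic neurexin ligand that also binds heparan sulfate proteoglycans, read 5.99, 6.04 and 5.96 with fibrinogen and 6.40, 6.39 and 6.68 in control arrays. It fell 1.41-fold (log2 fold change -0.49, SE 0.10, adjusted p = 0.0295), a call that survived the removal of control 2 and of no other array (adjusted p up to 0.106, without fibrinogen 3).

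The other 6 genes of the family did not pass. Lrrtm2 had the brightest probe of the family and was at 10.56 ± 0.03 in fibrinogen and 10.65 ± 0.03 in control arrays (SD, n = 3; log2 fold change -0.08, 95% interval -0.25 to 0.08). The neuroligin genes, which encode postsynaptic neurexin receptors, were at 0.13 for Nlgn1, -0.06 for Nlgn2 and 0.27 for Nlgn3, of which Nlgn3 came nearest to the threshold (95% interval 0.06 to 0.48, adjusted p = 0.132). Nrxn3, another neurexin, read 6.10, 6.38 and 6.23 with fibrinogen and 5.89, 5.42 and 5.98 in control arrays, without overlap (log2 fold change 0.47, SE 0.16, 95% interval 0.10 to 0.84, adjusted p = 0.136). Its point estimate was above that of the called Nrxn2, with an SE of 0.16 against 0.08. Lrrtm3 was at 0.11.

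Calls were more common where probes were bright, within the group and over all genes. Of the 38 adhesion genes brighter than the median gene, 11 passed (28.9%), against 11.4% of all genes above the median. Of the 39 dimmer ones, 2 passed (5.13%), Celsr3 and Lrrtm4, against 2.97% of all genes below it. Brightness depends on the probe as well as on the transcript, so the order of probes by brightness is not an order of transcript levels.

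**Figure D3:**
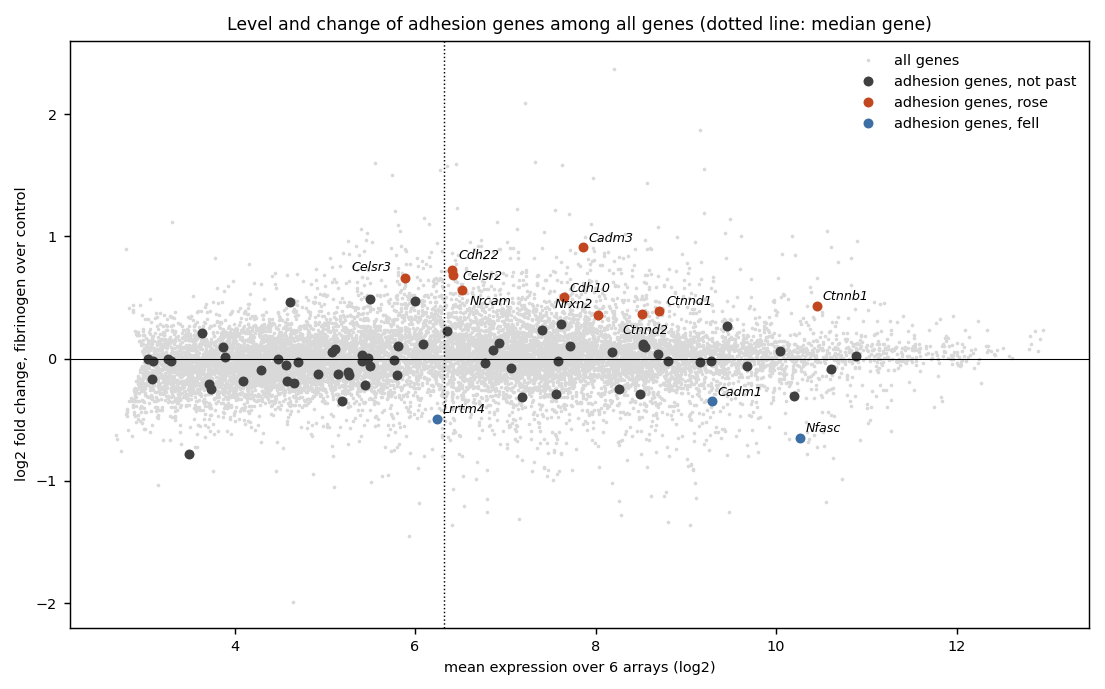
Mean log2 expression over the 6 arrays (x axis) and log2 fold change, fibrinogen over control (y axis), for all 13355 genes in grey and the 77 adhesion genes in colour. The dotted line marks the median gene, to the right of which lie 11 of the 13 adhesion genes that passed.

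Promoter sequence was read from RefSeq (build GRCr8, 250 bases before to 50 after the listed start) for 59 of the 77 genes and for 10 of the 13 that passed. Each was searched on both strands for GGCGCC, a GC-rich element that BMP-activated SMAD proteins bind, for CACCTG, the E-box that the cadherin repressors of the Snail and Zeb families bind, and for CTTTGAT, a TCF motif through which beta-catenin acts. None of the 3 motifs overlaps another in the windows printed here. GGCGCC stood in 7 of the 59 windows (11.9%), against 11.8% of 27457 RefSeq windows of that length and 17.9% of the 11002 that belong to measured genes. CACCTG also stood in 7 (11.9%), against 18.7% of all windows, and CTTTGAT in 1 (1.69%), against 3.62%. Among the 10 called genes, GGCGCC was found in Celsr2 and Ctnnd2, CACCTG (on the minus strand of the window) in Celsr2, and CTTTGAT in none. Not every window lies at the 5′ end of its gene: for 15 of the 59 the listed start lies more than 1000 bases inside the gene's RefSeq span, among them Ctnnb1 (16561 bases inside) and Nfasc (34825 bases inside), so 8 of the 10 called genes have a window near that end. Among the 44 windows nearer to it, a choice made after the values were seen, GGCGCC and CACCTG stood in 7 each (15.9%), against 11.5% and 18.4% of 24544 such RefSeq windows. That baseline is not limited to measured genes, whose windows at any distance held GGCGCC in 17.9% and CACCTG in 18.8%. The median count of CG dinucleotides was 10 per window in the 59 adhesion genes, 14.5 in the 10 called ones and 18 in measured genes. The 59 include the 15 windows far inside their gene, and no median was taken without them. These are matches of letters in one listed start per gene, and say nothing of binding in these cells.

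The windows of Celsr2 (chr2:198741333-198741632, minus strand) and Ctnnd2 (chr2:82879219-82879518, plus strand) are shown because they hold a letter match to GGCGCC. That of Cadm3 (chr13:88349669-88349968, minus strand) is shown because this gene had the largest rise and its window holds none of the 3 motifs. Sequences run 5′ to 3′ on the strand of the gene, and capitals mark the motif matches.
Celsr2: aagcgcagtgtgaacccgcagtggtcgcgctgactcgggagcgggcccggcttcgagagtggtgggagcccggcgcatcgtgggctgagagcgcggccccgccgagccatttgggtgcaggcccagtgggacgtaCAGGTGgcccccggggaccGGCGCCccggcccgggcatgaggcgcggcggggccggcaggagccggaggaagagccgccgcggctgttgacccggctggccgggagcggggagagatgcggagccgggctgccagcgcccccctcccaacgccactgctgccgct
Ctnnd2: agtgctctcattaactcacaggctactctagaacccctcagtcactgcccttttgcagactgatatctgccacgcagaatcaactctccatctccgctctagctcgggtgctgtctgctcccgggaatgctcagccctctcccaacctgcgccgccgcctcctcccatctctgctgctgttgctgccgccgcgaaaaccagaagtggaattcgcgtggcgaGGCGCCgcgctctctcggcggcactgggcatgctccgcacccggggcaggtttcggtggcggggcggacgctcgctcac
Cadm3: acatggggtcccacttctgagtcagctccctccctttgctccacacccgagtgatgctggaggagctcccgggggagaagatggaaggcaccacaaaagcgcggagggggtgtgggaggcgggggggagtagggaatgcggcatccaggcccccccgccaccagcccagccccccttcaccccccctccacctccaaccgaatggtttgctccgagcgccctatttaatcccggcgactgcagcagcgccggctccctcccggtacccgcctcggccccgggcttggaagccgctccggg

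A further 4 lists hold adhesion pathway genes outside the symbol pattern. Together 7 of their 127 measured genes rose and 11 fell (14.2% in all), against 4.16% higher and 3.00% lower over all genes measured (7.16% in all), with a median log2 fold change of 0.03. Of the 127 genes, 80 were brighter than the median gene, where 11.4% of all genes passed. Of 23 cadherin partners and junction adaptors, 2 rose and 1 fell (13.0% in all, median 0.06). Arvcf, a catenin relative of Ctnnd1, read 6.51, 6.46 and 6.40 in fibrinogen arrays and 6.08, 6.11 and 6.01 in control arrays (log2 fold change 0.39, adjusted p = 0.0253). Magi1, a scaffold of cell junctions, rose by 0.48 on that scale (adjusted p = 0.0298). Ptprt, a receptor phosphatase that binds itself across cells and acts on cadherin complexes, fell 1.71-fold (log2 fold change -0.77, SE 0.10, adjusted p = 0.00568), and its arrays read 7.18, 7.24 and 7.28 with fibrinogen and 8.17, 7.99 and 7.85 in control. The call of Ptprt held without any one array. That of Arvcf survived the removal of no array and that of Magi1 of fibrinogen 2 alone (highest adjusted p = 0.0960 and 0.107), and Magi1 lost its call with the mean of its probes.

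Among 18 genes of proteases and processing enzymes that act on adhesion proteins, 1 rose and 3 fell (22.2% in all, median -0.03). Mmp15, a membrane-bound metalloprotease, read 9.63, 9.51 and 9.59 in fibrinogen arrays and 8.57, 8.70 and 8.61 in control arrays, and rose 1.93-fold (log2 fold change 0.95, SE 0.08, adjusted p = 0.00166). The sheddase gene Adam17, the beta-secretase gene Bace1 and the gamma-secretase subunit gene Psen2 fell by 0.46, by 0.42 and by 0.64 on the log2 scale (adjusted p = 0.0229, 0.0294 and 0.00591). The calls of Mmp15 and Psen2 held without any one array. That of Adam17 survived the removal of fibrinogen 3 alone and that of Bace1 of no array (highest adjusted p = 0.0903 and 0.104). Of 51 other synaptic organiser genes, C1ql1, a secreted ligand of synaptic adhesion receptors, rose by 0.68 (adjusted p = 0.00503) and Dlg1, a synaptic scaffold, fell by 0.40 (adjusted p = 0.0237), while 49 did not pass (median 0.04). The share called there was 3.92%, or 2 of 51 genes, against 7.16% of all genes. Probes of 24 of the 51 were dimmer than the median gene, where 2.97% of all genes passed. The difference in share was not tested. The call of Dlg1 survived the removal of control 1 and of no other array (adjusted p up to 0.0919).

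Of 35 genes listed for the node, paranode and axon-glia contact, 3 rose and 6 fell (25.7% in all, median -0.02). The list also holds adhesion genes not particular to those sites, among them the called Kirrel3, Lsamp, Negr1 and Ntm. Its share is thus not one of node and paranode genes alone. Probes of 27 of the 35 were brighter than the median gene. The shares of the 4 lists were not tested against each other. Ank3, ankyrin G, the scaffold that binds neurofascin and Nrcam, read 7.11, 7.04 and 6.90 in fibrinogen arrays and 7.95, 7.93 and 7.90 in control arrays. It fell 1.88-fold (log2 fold change -0.91, SE 0.08, adjusted p = 0.00209), with no overlap. Epb41l3, a scaffold under the paranodal and juxtaparanodal membrane, went up: it read 7.30, 7.26 and 7.42 with fibrinogen and 6.51, 6.78 and 6.60 in control arrays (log2 fold change 0.70, adjusted p = 0.00779). Kirrel3, an immunoglobulin-type synaptic adhesion protein, fell 1.95-fold (adjusted p = 0.00521). Of the IgLON proteins, lipid-anchored adhesion molecules of neurons and glia, Lsamp and Negr1 fell by 0.61 and by 0.66 on the log2 scale (adjusted p = 0.00473 and 0.0354), and Ntm rose by 0.47 (adjusted p = 0.0286). Mag, the myelin-associated glycoprotein, and Tnr, tenascin R, fell by 0.63 and by 0.56, and the proteoglycan gene Ncan rose by 0.66. The calls of Ank3, Epb41l3, Kirrel3, Lsamp, Mag and Ncan held without any one array. That of Negr1 was lost without any one array, that of Ntm survived the removal of control 1 alone, and that of Tnr was lost without fibrinogen 1 or 3 (highest adjusted p = 0.104, 0.107 and 0.0565). Of the 18 genes of these 4 lists that passed, Adam17, Bace1, Magi1, Negr1 and Ntm lost their call in the unmoderated model, and Negr1 also in the fit on all valued probes.

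**Figure D4:**
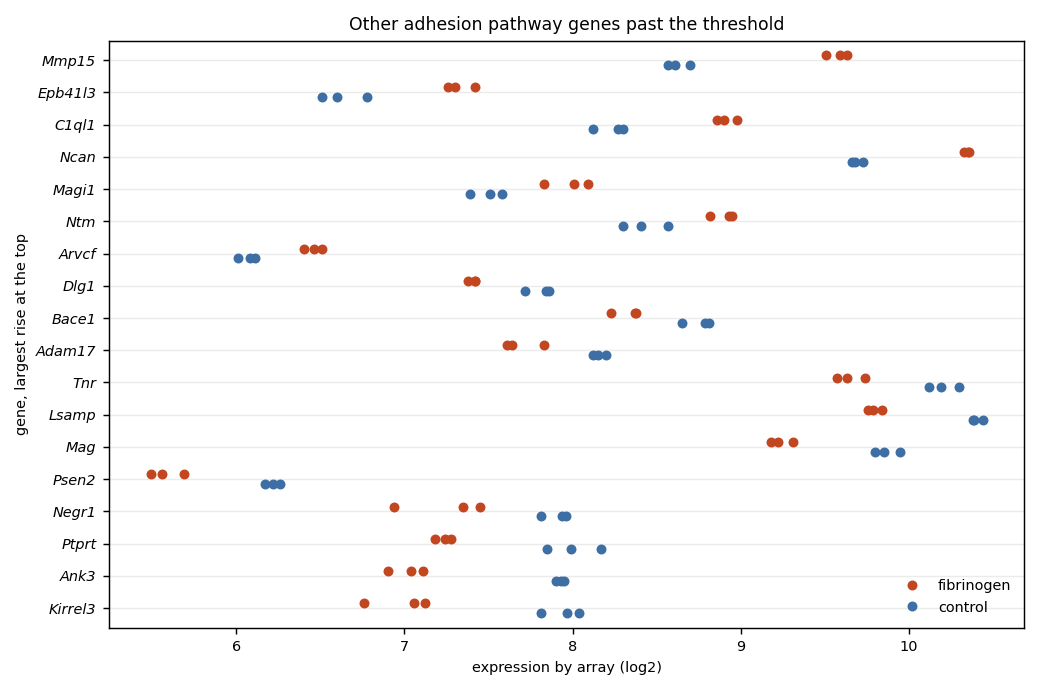
Log2 expression on each array (x axis, 1 point per array) of the 18 adhesion pathway genes outside the symbol pattern that passed, ordered from the largest rise at the top, with fibrinogen in red above control in blue. Mmp15 stands at the top and Kirrel3 at the bottom. No gene shown has overlapping groups, but the genes were picked by adjusted p on these same arrays. Of all 127 genes of the lists, 46 (36.2%) had no overlap, against 27.0% of all genes measured.

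Many adhesion genes are shared by neurons, astrocytes and oligodendrocytes, and in bulk RNA fewer cells of a type and less RNA per cell cannot be told apart. Over all genes measured 4.16% rose and 3.00% fell, and 6.42% and 4.93% of those brighter than the median gene. OPC markers were bright, and 3 of 5 rose (Cspg4, Pdgfra and Olig1). Gpr17 and Sox10 did not pass, at log2 fold changes of -0.14 and -0.09. The mean log2 level of the 5 was 10.24 to 10.31 in fibrinogen and 9.93 to 10.02 in control arrays. Of 6 mature oligodendrocyte markers, 3 fell (Mag, Mbp and Cnp) and 3 did not pass (8.29 to 8.38 with fibrinogen, 8.63 to 8.65 in control arrays). Mag and Mog also stand in the list of node, paranode and axon-glia contact genes. Of 6 astrocyte markers, Gfap, Slc1a2 and Slc1a3 rose. Aqp4, Gja1 and Aldoc did not pass, at -0.24, -0.10 and 0.04. The astrocyte mean, in which opposite changes cancel, was 8.70 to 8.77 with fibrinogen and 8.34 to 8.42 in control arrays. Of 11 neuron markers, 2 rose (Elavl4 and Stmn2, log2 fold changes 0.90 and 0.38), 1 fell (Syt1, -1.16) and 8 did not pass. Their mean levels, in which opposite changes cancel, overlapped at 7.03 to 7.10 with fibrinogen and 7.01 to 7.16 in control arrays. Microglia markers (1 of 7 fell), pericyte and fibroblast markers (none of 6 passed) and endothelial markers (none of 4 passed) were all dimmer than the median gene, with mean levels of 4.73 to 4.79, 4.57 to 4.64 and 3.88 to 4.14 in fibrinogen arrays and 4.88 to 5.17, 4.63 to 4.80 and 3.86 to 4.24 in control arrays. Of 5 Schwann cell markers none passed (7.03 to 7.11 with fibrinogen, 6.96 to 7.17 in control arrays). Of these, Egr2, Ngfr and Prx were dimmer than the median gene (mean log2 level over the 6 arrays 4.82, 5.13 and 4.92), while Mpzl1 and Sox2, which are not particular to Schwann cells, were at 10.50 and 10.00. No marker is at 0 on these arrays, which carry no detection call. The part of oligodendrocyte and astrocyte genes in the adhesion results was not tested.

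**Figure D5:**
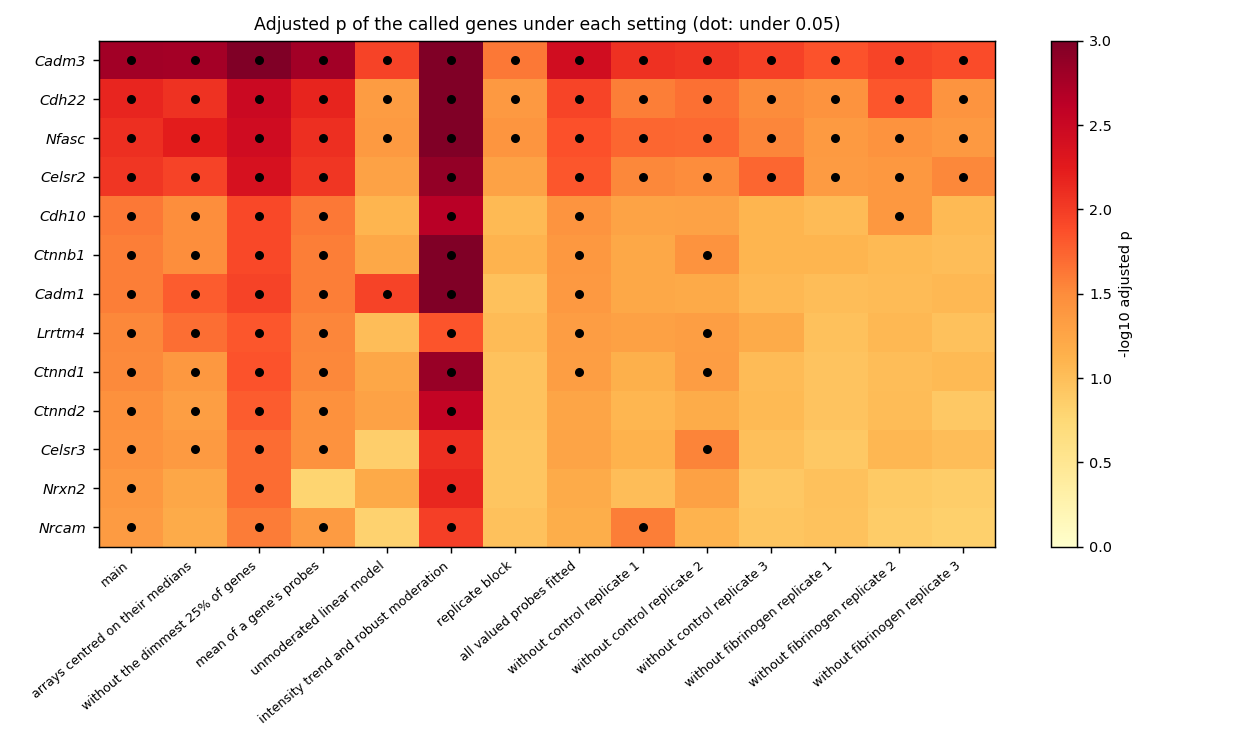
Adjusted p (colour, −log10 scale) of the 13 called adhesion genes (rows, smallest p at the top) under the reported setting (left column, "main") and 13 alternatives, with a dot where it was under 0.05. Cadm3, Cdh22 and Nfasc carry a dot in every column, while Nrxn2 carries the fewest, 3.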

How the data were processed

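The deposited table holds log2 expression values of 6 biotin-labelled Affymetrix arrays after NuGEN amplification, per the labels' protocols. The tools RMA and limma appear, with no version, in the submitters' processing notes, and the sources used here state no genome build. Of 26312 probe rows, 23631 have values on all arrays and 2681 are empty on all. Array medians were 5.78 to 5.80 in control arrays and 5.84 in each fibrinogen array. Probes were named from the platform annotation. Of the valued probes, 14083 carry 1 symbol, 228 several and 9320 none. Each gene took its brightest single-symbol probe (13355 genes).

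The 2 groups were compared with limma 3.58.1 under R 4.3.3 (lmFit, eBayes, two-sided, no covariate, no filter), adjusted by Benjamini-Hochberg over all genes, with a threshold of 0.05. The median SE of a log2 fold change was 0.104, set by 3 arrays a group. Alternatives were median centring, a filter on the dimmest 25% of genes, probe averaging, a fit on all valued probes, an unmoderated model, trend and robust moderation, a replicate block, and leaving out each array. Named were all members past the threshold, in each family the brightest and the 2 with the smallest p, and pathway genes past the threshold, other members named by range or nearness to the threshold having been added afterwards. The members, families, pathway lists and marker lists were chosen with earlier results of these data known.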

Additional observations from a re-analysis of the deposited data

How the results depend on the processing

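Of the 13 called adhesion genes, Cadm3, Cdh22 and Nfasc passed under all 13 alternatives, and no called gene changed direction under any. Higher and lower counts, 10 and 3 as reported, were 8 and 5 with arrays centred on their medians, 10 and 5 without the dimmest 25% of genes (60 members tested), 11 and 6 with trend and robust moderation, 9 and 3 with the mean of a gene's probes, 6 and 3 in the fit on all valued probes, and 2 and 2 in the unmoderated model. Leaving out 1 array gave 3 to 6 higher and 1 to 3 lower, from fewer arrays. The share of adhesion genes called and that of all genes then ranged from 5.19% to 11.7% and from 2.68% to 4.43%, and were 5.19% and 3.74% in the unmoderated model. Ncam1 and Cdh13 passed with centring, without dim genes and with trend moderation. Cdh19 passed without control 2 and with trend moderation, Nlgn3 with trend moderation, and Cntnap1 without fibrinogen 3. Among the named adhesion genes, called ones numbered 13 as reported, 4 to 8 with 1 array left out, 4 in the unmoderated model and 3 with the replicate block. With the replicate block 2 adhesion genes were higher and 1 lower, and 343 of all genes passed against 956 as reported. Deviations from group means correlated at 0.02, -0.14 and -0.07 between same-numbered arrays, and at -0.10 to 0.17 between the others. With 3 arrays a group, such correlations cannot settle whether arrays were paired. The reported setting did not take the numbers as pairs. Genes near 0 that did not pass changed sign: Cntn1 was at -0.023 with centring and -0.013 to 0.047 with 1 array left out, Pcdh17 at -0.062 to 0.0033 and Fat1 at -0.072 to 0.018. The cause was not tested. All genes called numbered 500 in the unmoderated model, 1617 with trend moderation and 358 to 592 with 1 array left out. No detection call is given, so dim probes limit what could be seen.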

Other observations

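A set of 3 valued probes carries several protocadherin symbols and entered no gene-level test. The probe shared by 15 Pcdha genes read 5.34, 5.22 and 5.40 in fibrinogen arrays and 5.07, 5.37 and 5.22 in control arrays, with overlapping groups (log2 fold change 0.10, 95% interval -0.14 to 0.34). The probe shared by 13 Pcdhg genes read 7.09, 7.02 and 7.09 with fibrinogen and 6.83, 7.06 and 6.96 in control arrays (log2 fold change 0.12, 95% interval -0.09 to 0.32). The probe shared by Pcdhb9 and Pcdhb10 read 5.27, 5.38 and 5.17 with fibrinogen and 5.26, 5.45 and 5.50 in control arrays (log2 fold change -0.13, 95% interval -0.37 to 0.11). None of these 3 passed in limma over all valued probes (adjusted p = 0.696, 0.571 and 0.583). Each reads several transcripts together.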
